A study of Homo sapiens with 10 samples.

Results

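The genes described are those of cytosolic and mitochondrial heat shock proteins: HSPA1A, HSPA1B, HSPA4, HSPA8, HSPB1, HSPH1, HSP90AA1, HSP90AB1, HSPD1 and HSPE1. They were chosen by symbol from the chaperones of the cytosol and of the mitochondrial matrix, with earlier results of these data known. Of these 10 genes, 6 had a probe set named for them among the 14884 named genes of the series (HSPA1A, HSPA1B, HSPA4, HSPB1, HSPH1 and HSPD1), and they were represented by 14 probe sets. HSPA8, HSP90AA1, HSP90AB1 and HSPE1 were not analysed here. RNA came from MCF10A, an immortal cell line from human breast epithelium that does not form tumours, with 5 arrays of parental cells (H2A.X WT) and 5 of cells carrying an H2A.X knockout. H2A.X is a histone variant that is phosphorylated around DNA breaks. Both groups were grown in DMEM/F12 with horse serum, hydrocortisone, EGF, cholera toxin, insulin and antibiotics for 48 h before harvest, and no heat or other stress is named in the labels. The labels do not say whether the numbered samples of a group were separate cultures, or whether the knockout cells were 1 clone, so a p-value here reflects the spread among these samples only, and that spread may be technical.

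Heat shock proteins are chaperones that hold, fold or refold other proteins. The HSP70 proteins bind unfolded stretches in cycles of ATP use, with J-domain proteins that load them and nucleotide exchange factors that release the client, and pass some clients on to HSP90. Small heat shock proteins such as HSPB1 hold unfolded proteins without ATP, and the chaperonin of HSPD1 with its lid HSPE1 encloses newly imported proteins in mitochondria. The genes of several of them are switched on by heat shock factor 1 (HSF1), which binds repeats of inverted GAA units called heat shock elements.

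The values are log2 signals per probe set, and a difference is knockout minus parental on that scale. A gene passed the test at a limma adjusted p under 0.05 (Benjamini-Hochberg over all genes), and the ± after a mean is the SD of 5 arrays. Array medians ran from 4.26 to 4.35, and arrays correlated across genes at 0.991 to 0.996 inside a group and at 0.975 to 0.979 across the groups. On the principal component with 7.53% of the variance, knockout replicate 1 (20.2) lay away from the remaining knockout arrays (-9.5 to -2.5). Both measured basal epithelial markers, KRT5 (0.78) and KRT14 (2.59), rose, and of 4 pan-epithelial markers KRT18 (-0.94) and EPCAM (-2.14) fell. Of 6 measured markers of fibroblasts, endothelium and immune cells, DCN (2.06) and KDR (1.69) rose and CD14 (-0.76) fell. Averaged over these 6 markers, the log2 signal ran from 3.92 to 4.08 in parental and from 4.45 to 4.58 in knockout arrays. Both ranges are below 5.49, the median of gene means, but the average hides the genes that rose. DCN went from a mean of 4.06 in parental to 6.11 in knockout cells and KDR from 4.69 to 6.38, so both exceeded 5.49 in knockout cells only. The part of the marker shifts in the results below was not tested. In such bulk RNA, a change in the number of cells of a kind and a change in RNA per cell cannot be told apart.

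In knockout cells the stress-inducible cytosolic HSP70 genes HSPA1A and HSPA1B, the small heat shock protein gene HSPB1 and the HSP110 gene HSPH1 rose, by 0.43 to 0.64 on the log2 scale. The mitochondrial chaperonin gene HSPD1 fell by 0.22. HSPA4, another HSP110 gene, differed by 0.13 and did not pass. Among the 6 measured members there were 4 rises, 1 fall and 1 gene that did not pass, against 34.3% of all genes called in either direction, 15.3% upward and 19.0% downward. With genes in the lowest quartile of signal left out, 5232 of 11336 genes were called, 2344 of them upward, and all 6 members, 5 of them upward. The median difference of the 6 was 0.52, where that of all genes was 0.00. HSPA1A and HSPA1B may share signal, so they do not stand as independent genes in these counts or in the median. All 6 had signals above the median of gene means in both groups.

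**Figure D1:**
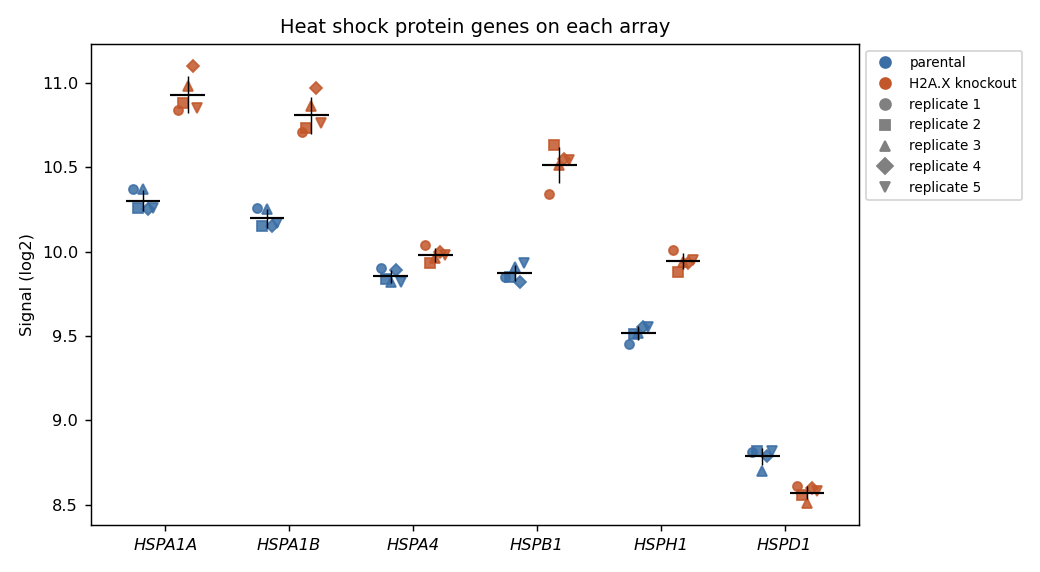
Signal (log2, vertical axis) of the 6 measured heat shock protein genes on every array, parental in blue and H2A.X knockout in orange, with marker shapes for replicate numbers. Horizontal lines are group means and vertical lines 1 SD (n = 5). The knockout arrays of HSPA1A, HSPA1B, HSPB1 and HSPH1 lie above all parental arrays, those of HSPD1 lie below, and the HSPA4 groups are 0.03 apart. Heights of different genes are not comparable.

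The inducible HSP70 pair comes first. HSPA1A and HSPA1B are intronless neighbours on chromosome 6 that encode nearly the same HSP70 protein. The 250 bases before their RefSeq starts (GRCh38.p14) are shown with that before HSPB1, because these 3 genes had the largest rises, and with that before a start of HSPD1, the gene that fell. Capitals mark each match to GAANNTTC or TTCNNGAA, a pair of inverted GAA units, searched on both strands (each motif is its own reverse complement). The windows are chr6:31815293-31815542 on the plus strand for HSPA1A, chr6:31827488-31827737 on the plus strand for HSPA1B, chr7:76302423-76302672 on the plus strand for HSPB1 and chr2:197499841-197500090 on the minus strand for HSPD1.
HSPA1A: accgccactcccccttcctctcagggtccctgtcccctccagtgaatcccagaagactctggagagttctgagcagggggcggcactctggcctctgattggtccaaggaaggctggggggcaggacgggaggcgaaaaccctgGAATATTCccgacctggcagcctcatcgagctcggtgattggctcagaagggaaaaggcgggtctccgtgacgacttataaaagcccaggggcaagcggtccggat
HSPA1B: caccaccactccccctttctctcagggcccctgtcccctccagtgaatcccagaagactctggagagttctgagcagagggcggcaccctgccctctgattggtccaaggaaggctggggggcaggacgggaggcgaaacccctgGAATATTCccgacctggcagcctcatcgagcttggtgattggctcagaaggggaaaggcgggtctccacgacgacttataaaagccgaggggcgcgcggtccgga
HSPB1: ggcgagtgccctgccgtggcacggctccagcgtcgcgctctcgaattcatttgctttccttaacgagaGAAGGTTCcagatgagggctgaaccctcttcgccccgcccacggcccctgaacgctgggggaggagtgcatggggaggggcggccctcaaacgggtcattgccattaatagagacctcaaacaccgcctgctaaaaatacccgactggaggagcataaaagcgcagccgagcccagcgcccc
HSPD1: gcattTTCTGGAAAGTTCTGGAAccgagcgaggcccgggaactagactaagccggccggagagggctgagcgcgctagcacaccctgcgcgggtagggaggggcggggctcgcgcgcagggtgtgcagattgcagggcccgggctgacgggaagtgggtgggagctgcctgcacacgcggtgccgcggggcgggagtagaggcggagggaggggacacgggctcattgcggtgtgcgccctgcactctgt

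Aligned to each other, the HSPA1A and HSPA1B windows were identical in 235 of 251 columns (93.6%), with 14 mismatches and 2 gap positions. Each held the match GAATATTC, ending 99 bases before the start in HSPA1A and 98 bases before it in HSPA1B, and each also held the TATA box letters TATAAA and 2 CCAAT boxes (CCAAT or its reverse complement ATTGG). HSPB1 held GAAGGTTC, ending 175 bases before its start. The HSPD1 window held 3 overlapping matches in a run of 4 units, and in that run 2 matches to the longer motif of 3 units (GAANNTTCNNGAA, or TTCNNGAANNTTC on the other strand). Its other RefSeq start, and the windows of HSPA4 and HSPH1, held neither motif. Of 34788 RefSeq promoter windows of the same length, 11.6% held the motif of 2 units, 0.443% that of 3 units, 32.0% a CCAAT box and 10.8% TATAAA or its reverse complement. The matches are letters in the reference and were not tied to the array values by any test. HSPD1, which fell, held the longest run of units before the start shown, and HSPH1, which rose, held no match in its window. Only exact matches inside these windows were searched, and looser or more distant units were not. Whether HSF1 had a part in the changes was not tested.

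HSPA1A gave signals of 10.37, 10.26, 10.37, 10.25 and 10.26 on parental arrays 1 to 5 and of 10.84, 10.88, 10.98, 11.10 and 10.85 on knockout arrays 1 to 5 (probe set 17026318). The groups were 0.47 apart at their closest, with knockout replicate 4 the highest of all. The mean rose from 10.30 ± 0.06 to 10.93 ± 0.11, a difference of 0.63 ± 0.06 (SE; limma adjusted p = 4.79e-06), which is 54.7% more signal (95% interval 40.6 to 70.2%). HSPA1B gave 10.26, 10.15, 10.25, 10.15 and 10.17 in parental and 10.71, 10.73, 10.86, 10.97 and 10.76 in knockout cells (probe set 17028007). Its knockout arrays kept the order of those of HSPA1A at the top, with replicates 4 and 3 highest, and the groups were 0.45 apart. Its difference was 0.61 ± 0.06 (SE; limma adjusted p = 5.25e-06), or 52.6% more signal (95% interval 39 to 67.5%).

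Because the transcripts of this pair are so alike, signal assigned to either gene may come from both. Each gene had 5 probe sets, and 3 of those of HSPA1A held exactly equal values on all 10 arrays, which left 8 distinct rows of values among the 10. All 10 passed (limma over 16098 named probe sets, of which 33.2% passed and 14.5% passed upward), with differences of 0.58 to 0.69 and a largest adjusted p of 8.61e-06. Parental means of these probe sets ran from 9.64 to 10.30 and knockout means from 10.28 to 10.93. The change of HSPA1A minus that of HSPA1B, taken within each array, was 0.02 ± 0.01 (SE; exact permutation test, two-sided, p = 0.0873; adjusted over 15 pairs, p = 0.101). Without knockout replicate 5 it was 0.03 (exact permutation test, unadjusted p = 0.0159), and with the mean of each gene's probe sets it was 0.00.

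**Figure D2:**
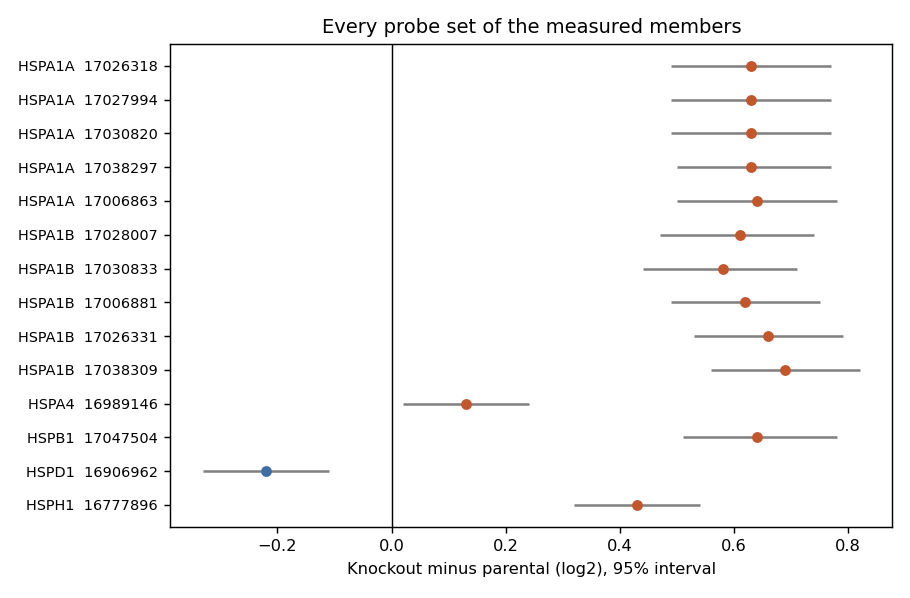
Knockout minus parental difference (log2, horizontal axis) for each of the 14 probe sets of the measured members, with 95% intervals from the limma fit across named probe sets (n = 5 arrays a group). Points of HSPA1A and HSPA1B sit between 0.58 and 0.69, and HSPD1 alone sits under 0.

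HSPB1, also called HSP27, is the small heat shock protein that binds unfolded proteins and actin. Its signals were 9.85, 9.85, 9.91, 9.82 and 9.93 in parental and 10.34, 10.63, 10.51, 10.55 and 10.54 in knockout cells (probe set 17047504). Knockout replicate 1 was the lowest knockout array and still lay 0.41 above the highest parental array. The mean rose from 9.87 ± 0.05 to 10.52 ± 0.11, by 0.64 ± 0.06 (SE; limma adjusted p = 2.79e-06), or 56.3% more signal (95% interval 42.5 to 71.3%). It was the largest difference among the probe sets standing for the members, and 7.67% of all genes had a larger one in absolute size. Another probe set of HSPA1B differed by 0.69. Without knockout replicate 1 the HSPB1 difference was 0.69.

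The HSP110 proteins are large relatives of HSP70 that act as nucleotide exchange factors and help to dissolve aggregates. HSPH1, also called HSP105, gave 9.45, 9.51, 9.52, 9.55 and 9.55 in parental and 10.01, 9.88, 9.94, 9.93 and 9.95 in knockout cells (probe set 16777896). The groups were 0.33 apart, and here knockout replicate 1 was the highest array. The mean rose from 9.52 ± 0.04 to 9.94 ± 0.05, by 0.43 ± 0.05 (SE; limma adjusted p = 1.87e-05), or 34.3% more signal. HSPA4 gave 9.90, 9.84, 9.82, 9.89 and 9.82 in parental and 10.04, 9.93, 9.96, 10.00 and 9.98 in knockout cells (probe set 16989146). The groups did not overlap, but the gap between them was 0.03. Non-overlapping groups were seen in 28.2% of all genes, with the knockout arrays above in 12.2%. The difference was 0.13 ± 0.05 (SE; limma adjusted p = 0.0625), with a 95% interval of 0.02 to 0.23. It passed under quantile normalisation (0.18, limma adjusted p = 0.00824), when genes in the lowest quartile of signal were left out (0.13, adjusted p = 0.0383) and when the variance was modelled with signal by a robust fit (0.13, adjusted p = 0.00506). HSPA4L, the remaining HSP110 gene and no member of the set, rose from 9.37 ± 0.05 to 9.70 ± 0.09, by 0.33 ± 0.06 (SE; limma adjusted p = 0.000640).

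HSPD1 encodes HSP60, the barrel of the mitochondrial chaperonin, and shares a promoter region with HSPE1, which lies head to head with it. Its signals were 8.81, 8.82, 8.70, 8.79 and 8.82 in parental and 8.61, 8.56, 8.51, 8.60 and 8.58 in knockout cells (probe set 16906962). All knockout arrays lay below all parental arrays, as for 16.0% of all genes, and the groups were 0.09 apart, with parental replicate 3 the closest to the knockout arrays. The mean fell from 8.79 ± 0.05 to 8.57 ± 0.04, a difference of -0.22 ± 0.05 (SE; limma adjusted p = 0.00405), or -14% in signal (95% interval -20.3 to -7.23%).

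The members did not change alike. Within each array the log2 value of a member was subtracted from that of another, for all 15 pairs of the 6, and the groups were compared by a two-sided exact permutation test, for which p = 0.00794 is the smallest that 5 against 5 arrays can give. After adjustment over the 15 pairs, 12 passed. HSPA1A and HSPA1B may share signal, so the pairs of HSPA1B largely repeat those of HSPA1A. These pairs do not stand as independent in the counts or in the adjustment. HSPD1 and HSPA4 each differed from all other members (adjusted p = 0.0132 for each of those 9 pairs, exact permutation test). For the HSPD1 pairs the smallest p was fixed by the signals already given, so the test adds nothing to them. Every HSPD1 knockout array lay below all parental arrays, and those of each other member lay above. HSPA1A exceeded HSPA4 by 0.50 (95% interval 0.35 to 0.65), HSPB1 exceeded HSPD1 by 0.86 (0.70 to 1.02), and HSPH1 exceeded HSPA4 by 0.30 (0.21 to 0.39). HSPH1 rose less than HSPA1A, HSPA1B and HSPB1, by 0.20, 0.18 and 0.22 (adjusted p = 0.0496 for each, exact permutation test), with arrays of the groups overlapping. These 3 calls rest on nearly every array. With an array left out, the HSPA1A and HSPA1B pairs passed only without parental replicate 1 or knockout replicate 1, and the HSPB1 pair only without knockout replicate 1. The differences then ran from 0.16 to 0.24, from 0.14 to 0.22 and from 0.17 to 0.28, with adjusted p of up to 0.0992 (exact permutation test). Quantile normalisation also ended the call of HSPA1B minus HSPH1 (0.16, exact permutation test, adjusted p = 0.0595). HSPB1 and the HSP70 genes were not separated, with HSPA1A minus HSPB1 at -0.01 (95% interval -0.17 to 0.14, exact permutation test, adjusted p = 0.841) and HSPA1B minus HSPB1 at -0.03 (-0.19 to 0.12, adjusted p = 0.672). Differences of up to those bounds remain possible.

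**Figure D3:**
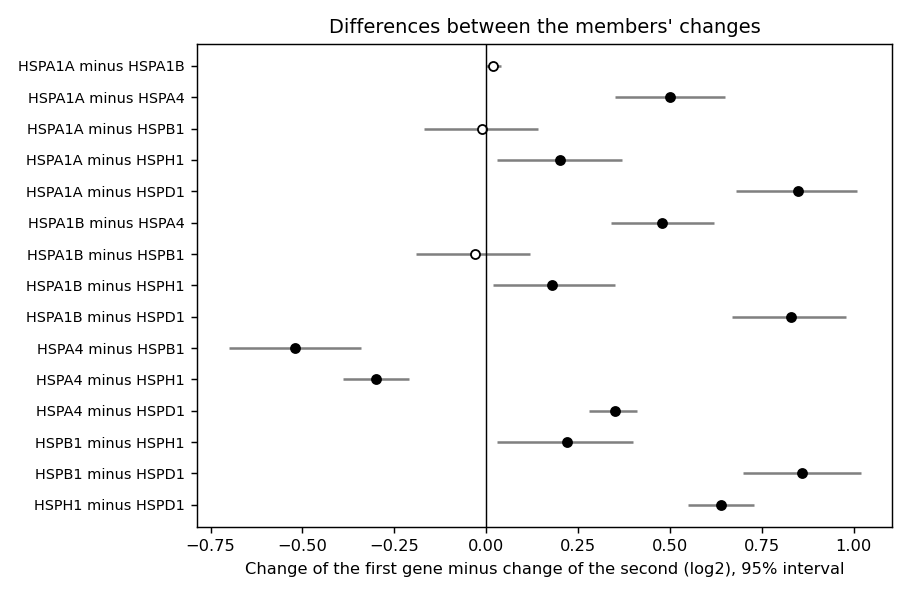
Change of the first gene minus change of the second (log2, horizontal axis) for the 15 pairs of measured members, with 95% intervals from the spread between arrays (n = 5 a group). Filled points passed the exact permutation test after adjustment over the 15 pairs (12 pairs) and open points did not (3 pairs).

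The genes that control or serve these chaperones moved in both directions. Of 125 genes in 9 lists of the chaperone network outside the members, 57 were measured, and of these 10 rose, 15 fell and 32 did not pass (43.9% called, beside 34.3% of all genes). Their median difference was -0.02. With genes in the lowest quartile of signal left out, 26 of 53 of these genes passed, beside 5232 of 11336 of all genes. The listed J-domain genes and the subunits of the cytosolic chaperonin CCT were not analysed here.

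HSF1, the activator of the heat shock genes, fell from 7.89 ± 0.04 to 7.55 ± 0.11, by 0.35 ± 0.06 on the log2 scale (SE; limma adjusted p = 0.000546), with every knockout array below every parental array. It was the only one of 5 measured heat shock factor genes and partners that passed. Of 11 measured heat-inducible genes outside the members, HSPA4L (0.33) and CACYBP (0.20), whose product binds a ubiquitin ligase, rose and DEDD2 (-0.27) fell, which is 27.3% called beside 34.3% of all genes. BAG3, a strongly heat-inducible HSP70 partner, was at 7.71 ± 0.06 and 7.80 ± 0.10 (difference 0.10, limma adjusted p = 0.278). HSPA6, an HSP70 gene that is nearly silent without stress, was at 4.83 ± 0.36 and 4.68 ± 0.17 (difference -0.15, adjusted p = 0.503), and its signal lay under the median of gene means in both groups. HSPA6 has a near-identical pseudogene, HSPA7, so its probe set may hold signal of both.

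Among 13 other HSP70, HSP90 and small heat shock protein genes, 3 rose and 2 fell (38.5% called, beside 34.3% of all genes). Besides HSPA4L, TRAP1, the mitochondrial HSP90, rose by 0.36 (limma adjusted p = 0.000411), and HSPA2 by 0.34 (adjusted p = 0.0267). HSPA9, the mitochondrial HSP70 that pulls proteins through the import channel, fell from 12.39 ± 0.05 to 11.84 ± 0.04, by 0.56 ± 0.05 (SE; adjusted p = 1.84e-06), and HSPA14 fell by 0.27 (adjusted p = 0.0269). Signals of 6 of the 13 genes, HSPA2 among them, lay under the median of gene means in both groups. HSPA2 and HSPA14 had overlapping groups, and their calls ended when some single arrays were left out, at adjusted p of up to 0.0681 and 0.0694.

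Of 12 measured mitochondrial folding and quality control genes, 4 rose and 3 fell (58.3% called, beside 34.3% of all genes). None of the 12 had a signal under the median of gene means in both groups, so the share of all genes, dim ones included, is an unlike measure. With genes in the lowest quartile of signal left out, 5232 of 11336 of all genes passed. PMPCA, a subunit gene of the mitochondrial processing peptidase, rose by 0.71 (limma adjusted p = 1.78e-06, and 0.46 by its other probe set). The inner membrane protease genes SPG7 and AFG3L2 rose by 0.57 and 0.24. YME1L1, another inner membrane protease, fell by 0.60 and CLPB fell by 0.20, a call that did not hold with most single arrays left out (adjusted p of up to 0.111). HSPD1 and HSPA9, the main folding chaperones of the matrix, fell while TRAP1 and PMPCA rose.

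The counts of partner genes that follow stand beside the same shares of all genes, 15.3% called upward and 19.0% downward. Of 7 measured HSP70 partners, BAG1 (0.32) rose, and BAG2 (-0.59), an inhibitor of HSP70-bound ubiquitin ligase activity, and HSPBAP1 (-0.74), whose product binds HSPB1, fell. Of 9 measured HSP90 co-chaperones, CDC37 (0.35), which brings kinases to HSP90, and FKBP5 (0.20), a partner in steroid receptor complexes, rose and the cyclophilin gene PPID (-0.58) fell. Of 6 measured subunits of prefoldin, which hands actin and tubulin to CCT, PFDN2 (-1.38), PFDN1 (-0.57) and VBP1 (-0.46) fell and none rose. PFDN2 fell from 11.29 ± 0.03 to 9.90 ± 0.07 (limma adjusted p = 9.61e-10), the largest difference in the network. Of 11 listed chaperones of the endoplasmic reticulum 3 were measured, and these fell: SDF2L1 (-0.81), calnexin gene CANX (-0.50) and calreticulin gene CALR (-0.32).

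**Figure D4:**
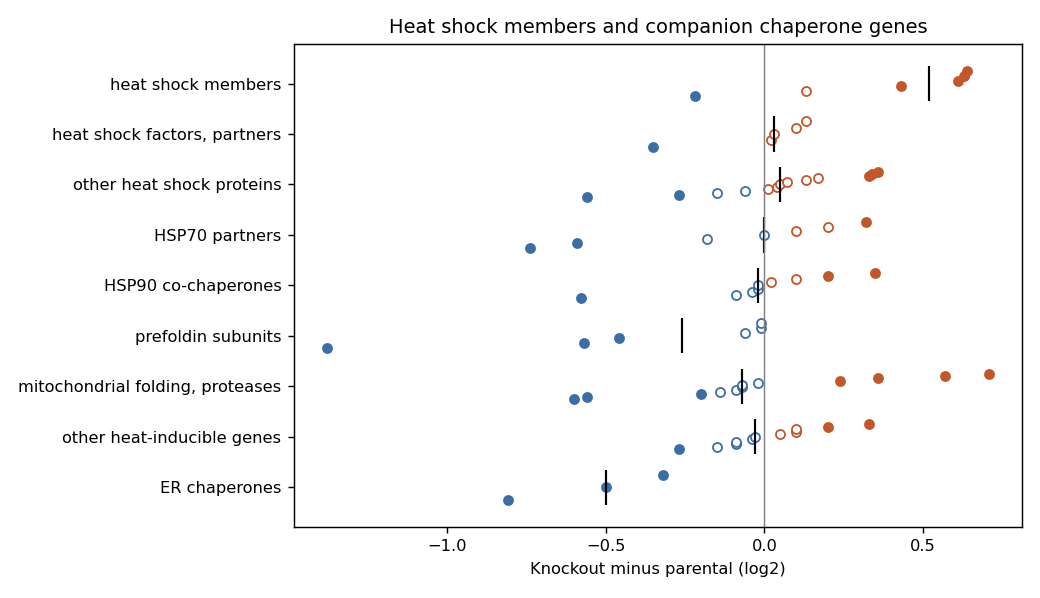
Knockout minus parental difference (log2, horizontal axis) of each measured gene in the member set and in the companion lists, 1 point a gene, some genes standing in more than 1 list. Filled points passed (limma adjusted p under 0.05), open points did not, and black bars are list medians. The member median is 0.52, and the medians of the other lists lie between -0.50 and 0.05.

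Along the chromosomes the members stood among genes that moved in both directions. For each member the 10 nearest measured genes on each side were taken, by the RefSeq gene order, and their calls stand beside 15.3% of all genes called upward and 19.0% downward. Among the 20 neighbours of HSPA1A, which include HSPA1B, 4 rose and 4 fell with a median of 0.02. The largest rise among those neighbours was 0.71, above the rises of HSPA1A (0.63) and HSPA1B (0.61). HSPB1 (0.64) and HSPH1 (0.43) lay above all 20 of their neighbours, which had medians of 0.12 and -0.05. Those neighbours ran from -1.0 to 0.40 and from -1.2 to 0.34, so the largest falls exceeded the members' rises in size. Around each of these members 2 neighbours rose and 4 fell. Around HSPA4, on chromosome 5, 10 of 20 neighbours fell and 1 rose, with a median of -0.22, while HSPA4 itself was at 0.13. Around HSPD1, on chromosome 2, 3 rose and 3 fell with a median of 0.02.

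**Figure D5:**
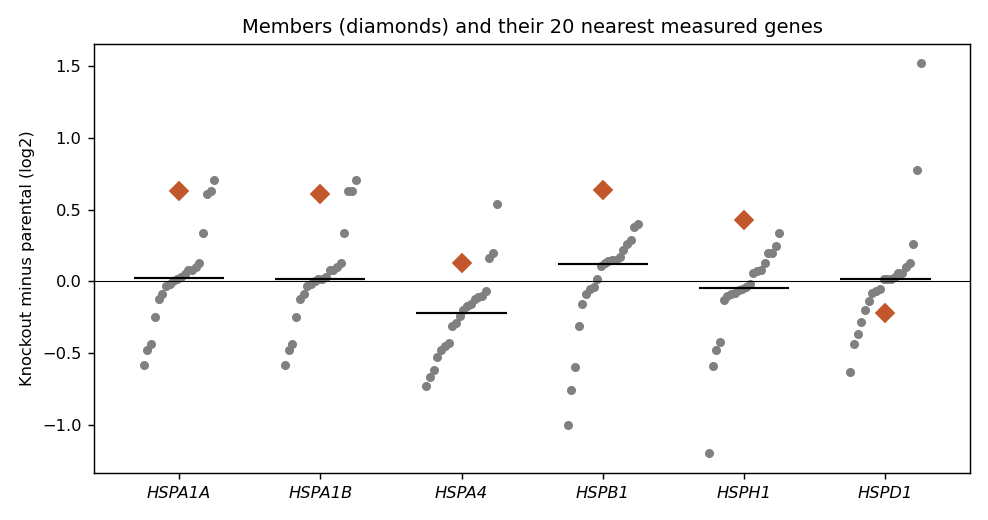
Knockout minus parental difference (log2, vertical axis) of each measured member (diamond) and of its 20 nearest measured genes on the chromosome (grey points, ordered by value, black bar at their median). HSPB1 and HSPH1 lie above all their neighbours, and the neighbours of HSPA4 have a median of -0.22.

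The deviations of single arrays from their group mean were also compared, as a description, over 10 arrays and 7441 genes above the median signal. The closest to HSPA1A were HSPA1B (r = 0.98, rho = 0.94), OAZ1 (r = 0.96, rho = 0.90) and GMPPB (r = 0.95, rho = 0.88), whose own differences were 0.61, -0.06 and -0.82. The closest to HSPD1 were SBNO1 (r = 0.98, rho = 0.94), ZNF77 (r = 0.95, rho = 0.96) and NKD2 (r = 0.90, rho = 0.82), with differences of 0.35, 0.09 and 0.03. These are the highest of 7441 values over few arrays, and none of the other measured members was among the closest 3 to HSPD1. With the farthest arrays left out, r was lower, at 0.96, 0.89 and 0.85 for HSPA1A and at 0.91, 0.92 and 0.81 for HSPD1. HSPA1A and HSPA1B may share signal, so their r is not that of independent genes.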

How the data were processed

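The authors deposited log2 signals, 1 column per array, already summarised and normalised; Affymetrix Expression Console and Partek 6.6 are named in the submitters' processing notes, and the summarisation method is not given in the sources used here. Values of 1.13 to 13.87 showed the scale to be log2. Of 53617 probe sets, 16098 had a gene symbol in the platform annotation, updated by Entrez identifier in RefSeq (GRCh38.p14). The probe set with the highest mean stood for each gene. Differences were tested by limma 3.58.1 (lmFit, then eBayes; R 4.3.3), with no covariate or filter, and the procedure was tested on simulated data. For arrays, their number limits the precision: the median standard error was 0.08. Exact permutation tests used scipy 1.17.1 in Python 3.11.15. The members and lists were chosen with earlier results of these data known. Named genes were the members, up to 4 genes of each list with the largest differences among those that passed with groups not overlapping, and HSF1, HSPA9, HSPA6 and BAG3 (also HSF2, HSPA5 and DNAJB1, not analysed here). HSPA2, HSPA14, AFG3L2, CLPB, DEDD2 and the markers were named after their values were seen. Of 4 pairs planned, 1 had both genes measured, and all 15 pairs were added after seeing the data.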

Additional observations from a re-analysis of the deposited data

Results flagged for a closer look

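Among 80 groups of 5 arrays, of 40 named genes, 2 arrays stood apart from the rest of their group, where chance alone marks about 1 in 20 groups. HSPD1 was at 8.70 on parental replicate 3 and between 8.79 and 8.82 on the other parental arrays. DEDD2 was at 8.05 on parental replicate 1 and between 7.89 and 7.92 on the others.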

How the results depend on the processing

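Every alternative kept the direction of each measured member. The calls of HSPA1A, HSPA1B, HSPB1, HSPH1 and HSPD1 held in all 16 settings, and HSPA4 alone changed its call, in 3 of them, as described above. With an array left out, 5 members passed each time, companion calls ran from 22 to 25 and calls over all genes from 4705 to 5128, and in the other settings these counts were 5 to 6, 22 to 26 and 4972 to 5250. Whether replicate numbers paired the samples is not settled by the values: deviations of same-numbered arrays correlated at -0.01 to 0.20, and 2 of 5 parental arrays were closest to their own number. With the replicate number as a block 4972 genes, 5 members and 22 companion genes passed, while 0 of the 15 pairs passed, since the smallest p of that sign-flip test is 0.0625. With an array left out 9 to 12 pairs passed. HSPA1A minus HSPA1B ran from 0.01 to 0.03. HSPA1A minus HSPB1 ran from -0.05 to 0.03 and HSPA1B minus HSPB1 from -0.07 to 0.01. The former turned to 0.01, 0.03 and 0.01 without parental replicate 1, knockout replicate 2 and knockout replicate 5, and the latter to 0.01 without knockout replicate 2. HSPA2 lost its call when parental replicate 1, 2, 3 or 4 or knockout replicate 3 or 4 was left out, HSPA14 with parental replicate 2 or 4 or knockout replicate 4 or 5 left out, DEDD2 with parental replicate 1 or knockout replicate 1, 3 or 5, and CLPB with each array except knockout replicates 3 and 4. Quantile normalisation ended the calls of HSPA14, DEDD2 and CLPB and left 11 pairs passed, and centring ended that of CLPB. The replicate block ended the calls of HSPA2, HSPA14 and CLPB (limma adjusted p of 0.0680, 0.0517 and 0.0882). The cause was not tested. The values were normalised by the authors, and a shift shared by all transcripts would not show in them.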
